A study of Drosophila melanogaster with 19 samples.

Results

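The 200 probes described here had the largest difference between gut and the rest of the body in adult female Drosophila that overexpressed Pdm2-RB, out of 32162 probes on the array. They were chosen on the 6 arrays of that genotype alone. A probe qualified when its mean linear signal in the gut was above 130, which 16067 probes met. The 3 qualifying probes of Drs, Dro2, Drsl3 or nub were left out by name, and the 200 with the highest mean log2 gut signal minus mean log2 rest signal were kept. That difference ran from 10.2 to 15.9 on the log2 scale, with a median of 11.5, and it describes how the probes were picked and is no finding. All tests below use only the 13 arrays of the other 2 genotypes, which had no part in the choice. Values of the 6 c564>Pdm2-RB arrays are given as a description.

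The series holds 19 one-color microarrays in 6 groups, each array from 25 dissected tissues. According to the Methods, replicates were independent pools of flies. Whether gut and rest samples came from the same flies is not stated there. The 3 genotypes all carried the c564-Gal4 driver, which is active in fat body and midgut and so in parts of both dissected tissues. The c564>nub-RB flies carried w; c564-Gal4>UAS-nubRB, with 4 arrays of rest (replicates 1 to 4) and 3 of gut (1, 3 and 4, of which the second is titled 3a). The controls, c564>+, are titled w1118 and carried the driver and no UAS transgene, with 3 arrays of each tissue (1, 3 and 4). Their genotype labels spell the driver c546, whereas the series text and the Methods give c564. The c564>Pdm2-RB flies carried w; c564-Gal4>UAS-Pdm2RB, with 3 arrays of each tissue (1, 2 and 4). All were 10-day-old females from mixed-sex populations kept at 25 °C, and "rest" is what remains of a fly once gut and head are removed, so it holds fat body together with muscle, ovary, cuticle and other tissues. Signals are given as quantile-normalized log2 values. A comparison was called at a false discovery rate of 1% with limma, adjusted over all probes tested.

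The adult fly midgut digests food with secreted enzymes that enterocytes make in large amounts. Serine endopeptidases of the trypsin and Jonah families cut proteins internally, zinc carboxypeptidases and aminopeptidases trim the ends of the resulting peptides, and maltases release glucose from small sugars. Many of these enzymes are encoded by clusters of duplicated genes, and different stretches of the midgut use different members.

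The 200 probes carry 166 different names or array identifiers. A gene symbol could be given to 67 probes of 54 genes, and 133 probes are known only by the transcript or clone identifier on the array. Of the named probes, 57 took their symbol from the study's list of proteolysis genes that changed in c564>nub-RB rest, 9 from its other lists of changed genes and 1 through RefSeq. That proteolysis list was chosen on these same rest arrays, so the named probes are not independent evidence of a direction in rest. The share of proteases among the named genes follows from that source and is no finding. Among the named genes were 6 trypsin genes (thetaTry, etaTry, zetaTry, kappaTry, lambdaTry and iotaTry), 9 Jonah proteases, 5 carboxypeptidases, 6 aminopeptidase or astacin genes, the maltases Mal-A7 and Mal-A8, and Npc2e, a sterol-binding protein of the Niemann-Pick type C-2 family. No named member was in the lists of lysozymes, antimicrobial peptides, hemocyte, muscle, fat body, salivary gland or Malpighian tubule genes, but few genes of these lists had a named probe, some antimicrobial genes were left out by the rule, and the 133 probes without a symbol could not be assigned to any list.

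The named genes often lay side by side. Of the 54 genes, 37 had another named member within 3 positions in the order of protein-coding genes, in 15 groups. The longest run held lambdaTry, kappaTry, zetaTry, etaTry and thetaTry on arm 2R. CG31265, CG17475, CG31266 and CG31267 formed a run of 4 on arm 3R, and Jon25Bi, Jon25Bii and Jon25Biii a run of 3 on arm 2L. Arm 3R held 17 of the 54 genes (31.5%, against 24.3% of all protein-coding genes) and the X chromosome held 3 (5.56%, against 15.7%). Probes of such close copies can bind each other's transcripts, so signals of neighbouring paralogs may be shared. The symbols came mostly from the proteolysis list, and many digestive enzymes are encoded by clusters of duplicated genes. Neither the neighbours nor the arm shares were compared with those of that list. These counts and shares therefore describe the named genes only and are no finding about the members as a whole.

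At the threshold of the choice, the last 5 members were FBtr0344211, FBtr0088122, FBtr0082771, FBtr0081350 and RE56633, with gut minus rest differences in c564>Pdm2-RB between 10.23 and 10.28. The 5 probes just outside had 10.13 to 10.22 and included LysC, a digestive lysozyme.

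In the gut, the 200 probes gave bright and closely matched signals in c564>+ and c564>nub-RB. Their median on an array was 15.30, 15.49 and 15.38 for c564>+ and 15.64, 15.25 and 15.28 for c564>nub-RB. All 200 were well above background on each of these 6 gut arrays, and no spot was saturated. In c564>Pdm2-RB gut, where a high signal was part of the choice, the median was 15.64, 15.58 and 15.39. The 200 probes together made up 8.03% to 9.36% of the summed normalized signal of a c564>+ gut array. On c564>nub-RB gut the share was 8.39% and 8.14% on replicates 3 and 4, and highest, at 11%, on replicate 1. Between replicates the median standard deviation of a probe was 0.21 in c564>+ gut and 0.32 in c564>nub-RB gut.

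In rest, the same probes varied between replicates far more than in gut. Their median was 8.71, 4.78 and 9.12 on c564>+ rest replicates 1, 3 and 4. It was 6.02, 2.75, 3.42 and 6.88 on c564>nub-RB rest replicates 1 to 4. Replicate 3 of the controls therefore lay below both replicates 1 and 4 of c564>nub-RB, and the groups overlapped. On the c564>Pdm2-RB rest arrays, which served for the choice, the median was 4.35, 3.39 and 2.71. The number of members well above background ranged from 122 to 198 of 200 in c564>+ rest and from 88 to 147 in c564>nub-RB rest. The share of the summed signal was 0.0803% to 0.359% in c564>+ rest and 0.00549% to 0.1% in c564>nub-RB rest. The median standard deviation of a probe was 2.02 in c564>+ rest and 1.84 in c564>nub-RB rest. In such bulk samples, fewer cells of a type and less RNA per cell cannot be told apart.

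**Figure D1:**
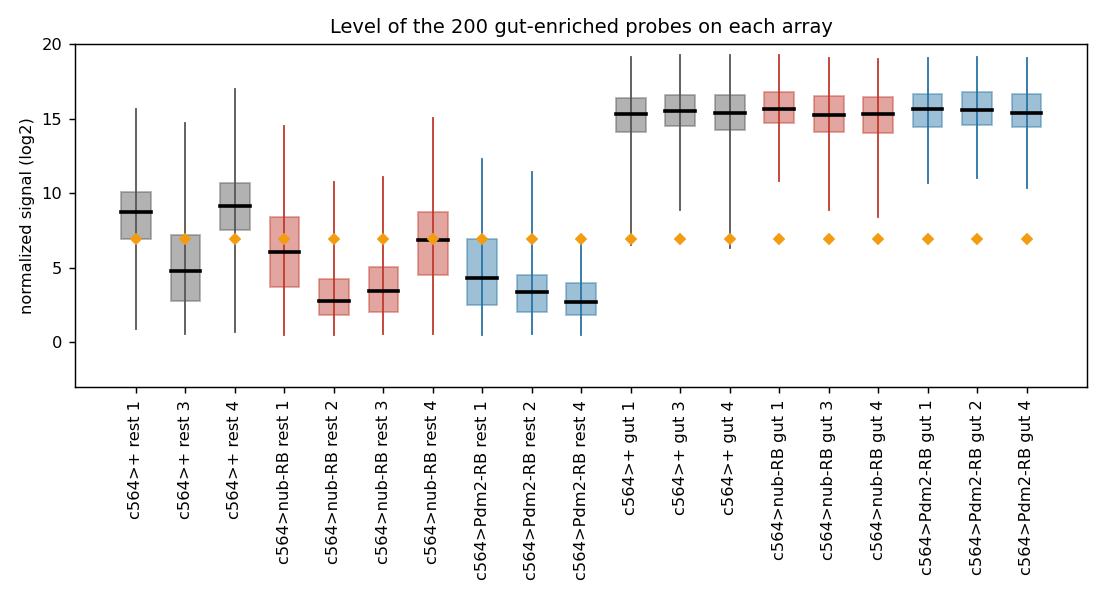
Normalized log2 signal (vertical axis) of the 200 probes on each of the 19 arrays (horizontal axis), with boxes from the lower to the upper quartile, black bars at the median, lines from the lowest to the highest probe and orange diamonds at the median of all probes. The medians of the 9 gut arrays lie between 15.25 and 15.64, while those of the rest arrays spread from 2.71 to 9.12.

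The gut and the rest of control flies were then compared, to see how far the enrichment held outside the arrays that defined it. In c564>+ flies, 184 of 200 probes were called higher in gut, against a background of 23.4% of 17515 probes tested. All 200 had a higher value on every gut array than on any rest array, against 30.9% of all probes tested. The median difference was 7.82 on the log2 scale, with a range from 3.43 to 9.88, and the median of all probes tested was −0.33. With scaling to the 75th percentile that median moved to −0.01 and the share of all calls that were higher moved from 39.3% to 50.6%. There, 191 members were called higher, against 5156 of all 17515 probes tested. The median difference was 6.26 within the scan date that held c564>+ rest replicate 4 and gut replicates 3 and 4, and 8.35 within the other date, with rest replicates 1 and 3 and gut replicate 1. Each date has a tissue with 1 array, whose spread cannot be taken from the other tissue, so no calls are given for them.

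The 3 named members with the smallest adjusted p were genes with even signals in control rest. Jon99Ci, a Jonah protease, had 17.24, 17.63 and 17.25 in c564>+ gut and 11.84, 11.41 and 11.99 in rest. The groups were wide apart and the difference was 5.63 (SE 0.20, adjusted p = 2.8e-05). CG18180, a related serine protease, had 17.72, 18.39 and 18.42 in gut and 11.65, 11.75 and 12.33 in rest, a difference of 6.27 (SE 0.27, adjusted p = 3.6e-05). Mal-A8, a maltase, had 12.42, 13.68 and 12.50 in gut and 6.58, 6.11 and 6.30 in rest, a difference of 6.54 (SE 0.37, adjusted p = 5.8e-05).

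The 16 members that were not called had differences of 4.10 to 9.63, and 15 of them were more than 5 lower on c564>+ rest replicate 3 than on replicate 1. CG8562, a zinc carboxypeptidase, read 11.09, 3.96 and 11.65 on c564>+ rest replicates 1, 3 and 4, and 17.26, 17.23 and 17.29 in gut. Its difference was 8.36 (SE 2.04, adjusted p = 0.0111). CG11911, a serine protease, read 12.79, 3.92 and 13.35 in rest and 18, 17.86 and 17.79 in gut, a difference of 7.86 (SE 2.52, adjusted p = 0.0309). CG31343, an aminopeptidase, read 11.91, 5.55 and 12.43 in rest and 17.53, 17.54 and 17.48 in gut, a difference of 7.55 (SE 1.83, adjusted p = 0.0107).

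In c564>nub-RB flies the median tissue difference was larger. There, 195 of 200 members were called higher in gut, against a background of 22.6% of 17371 probes tested, with a median of 10.28 and a range from 5.20 to 14.84. All gut arrays of this genotype shared 1 scan date with rest replicate 2, and rest replicates 1, 3 and 4 had the other. Tissue and scan date are thus largely confounded here, and the dates were split differently in c564>+. Within the shared date, with 1 rest array, the median was 12.64. No array of c564>nub-RB rest was well above background for 29 members. For these the gut signal was at least 93.2-fold to at least 9664-fold higher. The floor on each rest array was the lowest signal well above background, or the probe's own signal where that was higher. The bounds depend on this choice of floor. All 4 rest arrays were well above background for 68 members.

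The first named genes in c564>nub-RB were endopeptidases and a carboxypeptidase with rest signals near the floor. CG18585, a carboxypeptidase, had 15.37, 14.94 and 15.10 in gut and 2.72, 2.09, 2.05 and 2.70 in rest, none of the latter well above background. Its gut signal was at least 3706-fold higher (adjusted p = 2.2e-07). For CG17571, a serine protease with 2 probes among the members, the gut signal was at least 2721-fold (adjusted p = 2.3e-07) and at least 9664-fold higher (adjusted p = 3.3e-06). For CG10477, also a serine protease, it was at least 6444-fold higher (adjusted p = 5.1e-07).

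**Figure D2:**
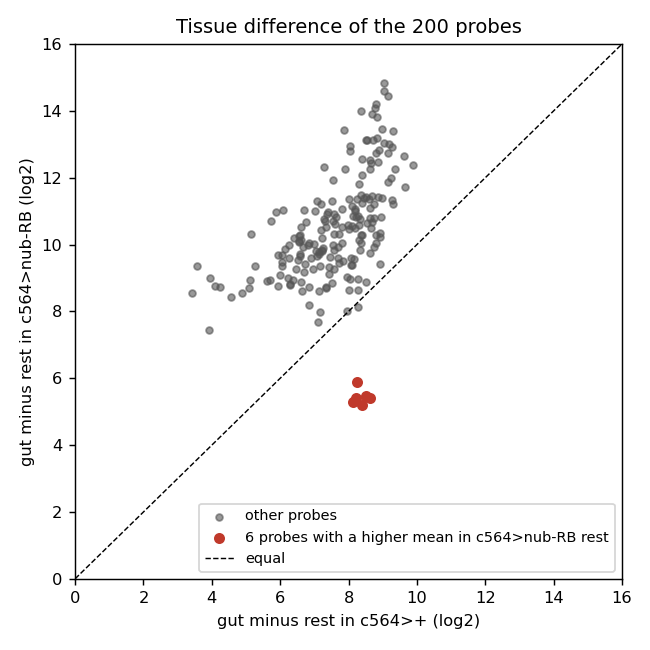
Mean log2 gut signal minus mean log2 rest signal of each of the 200 probes in c564>+ (horizontal axis) and in c564>nub-RB (vertical axis). Most points lie above the dashed line of equality, and the 6 red points, with a higher mean in c564>nub-RB rest than in c564>+ rest, lie below it with c564>nub-RB differences of 5.20 to 5.89.

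The members of the enzyme families are given in both genotypes as a description, since most were named from a list chosen for change on these rest arrays. The 7 trypsin probes were all called in both genotypes, with medians of 8.03 in c564>+ and 10.83 in c564>nub-RB. The 10 Jonah probes had medians of 5.38 and 9.84, and 9 and 10 of them were called. The 6 carboxypeptidase probes had 8.29 and 11.14, with 5 and 6 called, and the 7 aminopeptidase and astacin probes had 7.37 and 10.71, with 6 and 7 called. The 3 maltase probes had 6.25 and 9.99 and were all called. Over all named probes of each list, members or not, 11 of 11 trypsin, 15 of 16 Jonah, 8 of 9 carboxypeptidase and 6 of 8 aminopeptidase and astacin probes were called higher in c564>+ gut, and none was called lower.

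For rest, the comparison asked whether the signals of these probes differed between c564>nub-RB and c564>+ samples. From which tissue in the rest samples these signals came was not tested. Most members had lower means in c564>nub-RB, and whether they were called depended on the test. With limma no member was called. With the Methods' t-test and 1 spread pooled over all probes tested, 131 of the members tested were called lower and 6 higher. Of all 16491 probes tested, 391 were called lower and 787 higher in that test. When each probe kept its own spread, no member was called, against 31 lower and 55 higher of all probes tested. Of 200 members, 148 passed the filter on low signals, 142 of these had a mean below the control (56.6% of all probes tested did) and the median difference was −3.25, where the median of all probes tested was −0.05. None of the 148 was called lower or higher, against backgrounds of 0.91% and 3.4% of 16491 probes tested. At an unadjusted p under 0.05, 55 members were lower and 2 higher (37.2% and 1.35%, against 17.7% and 15.9% of all probes). In 14 members (9.46%, against 17.3% of all probes) every c564>nub-RB rest array was below every control array. Since a member passed the filter mostly through control rest, counts over these 148 lean toward lower values.

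The count of calls depended on c564>+ rest replicate 3. Without it, 34 of 158 members tested were called lower, with a median of −4.24. Of all 16519 probes tested in that fit, 92 were called lower and 232 higher. Within the scan date that held c564>+ rest 1 and 3 and c564>nub-RB rest 1, 3 and 4, none was called and the median was −1.72. With a normexp background correction the median was −1.46. The 64 tested probes with a symbol had a median of −3.52 and the 84 without one −2.98. Both sets passed the filter mostly through control rest, so these medians also lean toward lower values. Without the filter the median of all 200 members was −2.88, and that of all 32162 probes −0.03.

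CG31233, an aminopeptidase, had the smallest adjusted p. It read 11.25, 8.70 and 11.78 in c564>+ rest and 8.06, 7.40, 6.57 and 8.81 in c564>nub-RB rest. Replicate 4 of c564>nub-RB reached just above replicate 3 of the control, and the difference was −2.87 (SE 0.81, adjusted p = 0.0597). CG8562 read 3.83, 1.06, 1.13 and 3.34 in c564>nub-RB rest, none well above background and all below the 3 controls given above. Its control level was at least 47.6-fold that floor (adjusted p = 0.0599). Control replicate 3 was itself near the floor, with 3.45 as the lowest signal well above background on that array. The bound therefore rests mostly on control replicates 1 and 4. CG14820, a carboxypeptidase, read 8.91, 5.86 and 9.54 in c564>+ rest and 3.38, 3.41, 2.33 and 6.56 in c564>nub-RB rest. Replicate 4 of c564>nub-RB lay above control replicate 3, and the difference was −4.18 (SE 1.20, adjusted p = 0.0611).

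The Jonah proteases Jon25Biii and Jon99Cii were well above background on all 7 rest arrays. Jon25Biii read 15.18, 13.33 and 16.12 in c564>+ rest and 12.53, 5.19, 6.62 and 12.08 in c564>nub-RB rest, so the groups did not overlap. Its difference was −5.77 (SE 1.93, adjusted p = 0.0895). Jon99Cii read 15.67, 14.69 and 16.97 in c564>+ rest and 14.32, 6.45, 7.78 and 13.65 in c564>nub-RB rest, a difference of −5.23 (SE 2.03, adjusted p = 0.123). In both, replicates 2 and 3 of c564>nub-RB were the low ones. CG17633, a carboxypeptidase, read 13.63, 9.75 and 14.47 against 9.63, 4.26, 7.12 and 9.19, a difference of −5.07 (SE 1.58, adjusted p = 0.0751).

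The members with the lowest difference in the other lists overlapped between genotypes. kappaTry, a trypsin, read 7.96, 6.15 and 8.62 in c564>+ rest and 5.90, 0.98, 2.71 and 6.60 in c564>nub-RB rest, with a difference of −3.53 (SE 1.41, adjusted p = 0.130). CG8774, an aminopeptidase, read 8.74, 4.70 and 9.37 against 3.89, 1.12, 1.88 and 6.54, with −4.25 (SE 1.57, adjusted p = 0.110). Npc2e read 9.59, 4.75 and 10.64 against 5.52, 4.73, 4.80 and 5.04, with −3.31 (SE 1.28, adjusted p = 0.122). Mal-A7 read 9.21, 7.48 and 8.49 against 9.09, 3.77, 2.93 and 10.72, with −1.77 (SE 1.93, adjusted p = 0.549). In each of these 4, at least 1 array of c564>nub-RB rest lay above the lowest control array.

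Over the whole named content of each family, members or not, none of the trypsin, Jonah or carboxypeptidase probes was called in rest. The medians were −3.33 over 11 trypsin probes, −4.57 over 15 Jonah probes and −4.18 over 9 carboxypeptidase probes. Of 8 aminopeptidase and astacin probes, 1 was called higher, with a list median of −3.02. Markers of other tissues are given for the same rest arrays. Most symbols came from lists of changed genes, so these few named markers are not a fair sample of their tissues. Of 15 muscle genes listed, 3 were named (Act88F, TpnC4 and fln), and their summed linear signal was 29440 to 89270 in c564>nub-RB rest and 3418 to 18660 in c564>+ rest. For 6 of 11 hemocyte genes it was 37250 to 57470 and 5371 to 11270, and for 3 of 20 Malpighian tubule genes 2734 to 3999 and 796 to 1578. For 2 of 13 fat body genes (Fbp2 and Lsp2) it was 777.7 to 17910 and 84.1 to 387.6. With limma, 9 of 10 hemocyte probes and 1 of 4 Malpighian tubule probes were called higher in c564>nub-RB rest, and none of the 3 muscle probes or the 1 fat body probe tested. The part of these differences in the members' values was not tested.

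The members did not move as 1 block between rest arrays. For each probe, c564>+ rest replicate 3 was set against replicate 1. In 40 members the signals were within 1 of each other on the log2 scale, in 52 replicate 3 was more than 5 lower, and the differences ran from −8.88 to 1.44. Between c564>+ rest replicates 4 and 1, by contrast, 166 members were within 1 and 1 was more than 5 lower. These sets were formed after the values had been seen and carry no test.

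The 40 even members included Jon25Bi, Jon25Bii, Jon66Cii, Jon99Ci, Jon99Cii, CG18180 and Mal-A8. Their median was 8.42, 8.25 and 8.62 in c564>+ rest, and 9.53, 2.76, 4.43 and 9.46 in c564>nub-RB rest. So by their medians replicates 1 and 4 of c564>nub-RB matched or passed the controls in this set, and replicates 2 and 3 were low. Of the 40, 26 passed the filter on low signals in rest, so the set also holds dim probes. On the c564>Pdm2-RB rest arrays the median was 8.57, 3.89 and 3.03.

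The 52 uneven members included thetaTry, zetaTry, lambdaTry, Jon44E, Jon66Ci, Jon99Fi, CG8562, CG18585, CG7025, CG11911, CG11912 and CG15534. Their median was 9.21, 2.54 and 9.52 in c564>+ rest and 3.82, 2.16, 2.43 and 4.62 in c564>nub-RB rest, near the floor on all but the control replicates 1 and 4. Across all 200 members, the difference of c564>+ rest replicate 3 from replicate 1 and the difference of c564>nub-RB rest replicate 2 from replicate 1, which share no array, were negatively correlated (Pearson's r = −0.53, Spearman's rho = −0.53, n = 200 probes, which are not independent). Both were below 0 in most members (187 and 171 of 200), so the probes that dropped most in 1 tended to drop least in the other. The uneven members had a median of 3.82 on c564>nub-RB replicate 1, where the lowest signal well above background was 3.65. As a set they had little room to drop further on replicate 2, and the part of this floor in the correlation was not tested. thetaTry, 1 of the uneven members, kept a signal on c564>nub-RB replicates 1 and 4, with 10.08, 3.76 and 10.71 in c564>+ rest and 7.72, 1.16, 1.33 and 8.48 in c564>nub-RB rest. Its difference was −3.52 (SE 2.49, adjusted p = 0.354).

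**Figure D3:**
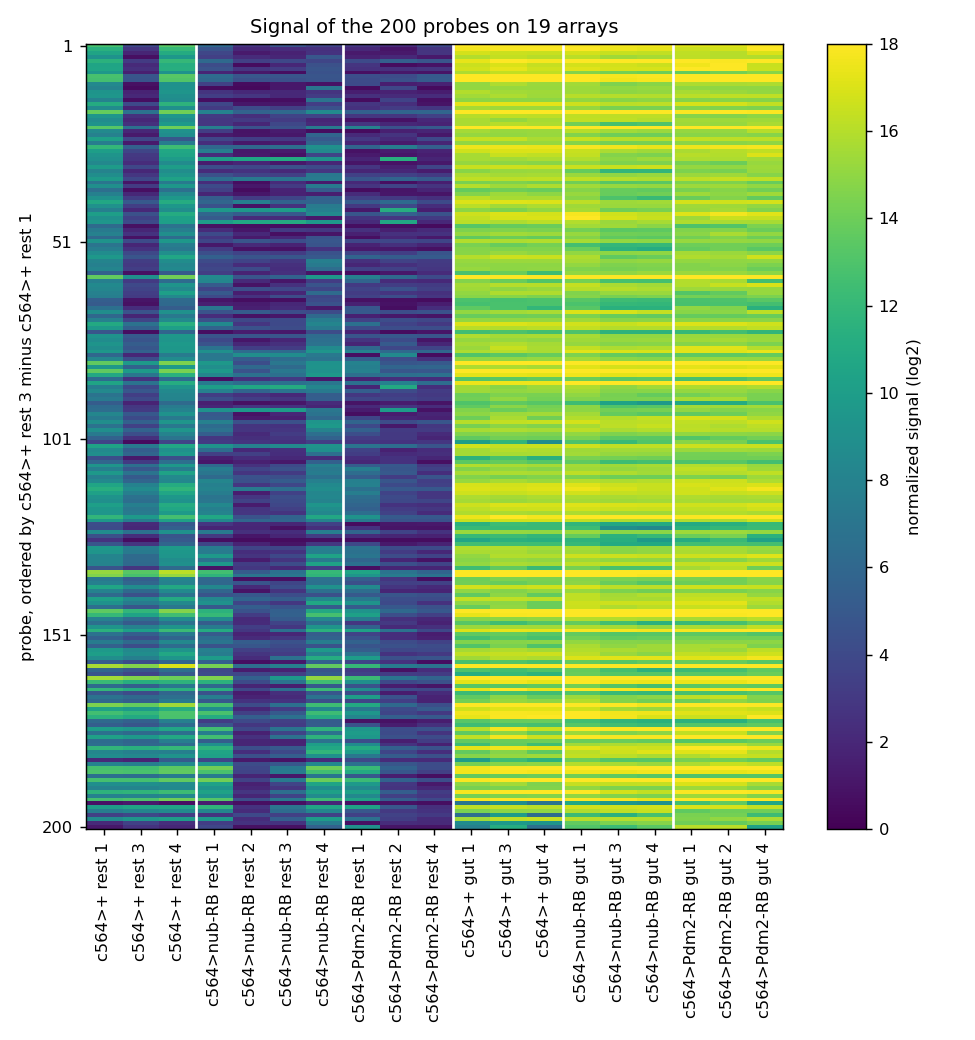
Normalized log2 signal (color scale from 0 to 18) of the 200 probes (rows, ordered by c564>+ rest replicate 3 minus replicate 1) on the 19 arrays (columns, by group). The upper rows, with the 52 uneven members, are in rest mostly bright on c564>+ replicates 1 and 4 alone. Many of the lower rows, with the 40 even members, are also bright on c564>+ replicate 3, on c564>nub-RB replicates 1 and 4 and on c564>Pdm2-RB replicate 1. Others of the lower rows are dim in rest.

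The rank order of the members in rest followed that in gut closely on some arrays. Across the 200 probes, Spearman's rho between the mean gut signal and the rest signal of the same genotype was 0.97 on c564>+ rest replicates 1 and 4, and 0.55 on replicate 3. It was 0.68, 0.48, 0.65 and 0.63 on c564>nub-RB rest replicates 1 to 4. On c564>+ rest replicate 4 the gut signal was a median of 6.23 higher, with quartiles of 5.84 and 6.57, and on replicate 1 it was 6.74, with quartiles of 6.24 and 7.22. On replicate 3 it was 10.16, with quartiles of 8 and 12.01. These correlations are across probes of different base composition, and values near the floor have no order.

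A group of 6 probes stood apart in rest. They are the only tested members with a higher mean in c564>nub-RB rest than in control rest, and were singled out after their values were seen. They are Send1, named for the spermathecal endopeptidase 1, 2 probes of CG17239, its neighbour in the genome, CG31681, CG32834 and FBtr0343186. Send1 read 7.77, 2.06 and 8.84 in c564>+ rest and 9.70, 9.58, 10.04 and 7.79 in c564>nub-RB rest. Replicates 2 and 3 of c564>nub-RB, low for most members, were close to replicate 1. The difference was 3.06 (SE 1.55, adjusted p = 0.209).

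In the other 5 probes, too, replicate 3 was the lowest of the c564>+ rest arrays. CG17239 read 6.42, 3.05 and 7.98 in c564>+ rest and 9.18, 9.60, 10.05 and 7.15 in c564>nub-RB rest on its first probe, with a difference of 3.18 (SE 1.20, adjusted p = 0.116). CG31681 read 9.04, 2.84 and 9.88 against 10.04, 10.59, 10.98 and 9.24, with 2.96 (SE 1.59, adjusted p = 0.231). CG32834 read 6, 2.03 and 7.52 against 7.15, 8.92, 8.76 and 7.30, with 2.85 (SE 1.23, adjusted p = 0.154). The groups overlapped in all 6. On the c564>Pdm2-RB rest arrays the median of the 6 was 1.60, 10.88 and 1.67, so replicate 2 was the high one there.

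In gut the 6 probes differed little between genotypes. Their medians were 15.19, 14.65 and 15.20 in c564>+ gut and 15.69, 14.57 and 14.84 in c564>nub-RB gut, and their differences between genotypes ran from −0.37 to 0.47. They had the lowest gut minus rest differences of all 200 in c564>nub-RB, from 5.20 to 5.89, and 8.12 to 8.62 in c564>+, all called.

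**Figure D4:**
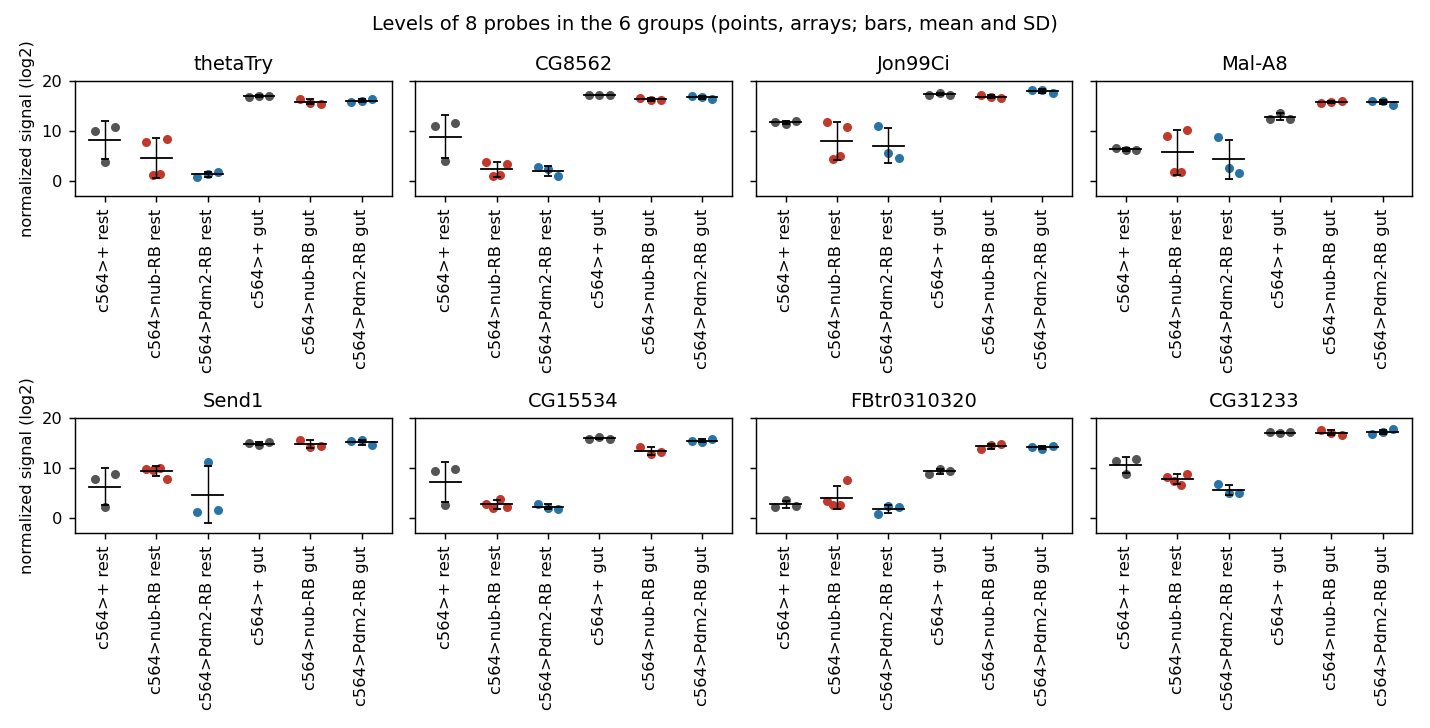
Normalized log2 signal (vertical axis) of 8 probes in the 6 groups (horizontal axis), with a point for each array and bars at the mean with the SD (n = 3 arrays, 4 for c564>nub-RB rest). Gut levels are close within groups, while in rest CG8562, Jon99Ci and Send1 split the arrays in different ways.

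In gut, the comparison asked whether nub-RB overexpression changed these transcripts in the samples where their signals were higher. Most members had close means in both genotypes. The median difference was −0.02 (0.03 for all probes tested), 102 members were below 0 and 98 above (46.3% and 53.7% of all probes tested), and the range was −2.60 to 5.04. Of the 200 members, 1 (0.5%) was called higher and none lower, against backgrounds of 0.264% and 0.234% of 16698 probes tested. At an unadjusted p under 0.05, 43 were higher and 30 lower (21.5% and 15%, against 9.95% and 8.37%). Every c564>nub-RB array was above every control array in 45 members and below in 34 (22.5% and 17%, against 14.3% and 10.8%). Under scaling to the 75th percentile, the share of all calls that were higher fell from 53% to 40.3%, and the median of the members was −0.23.

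The called probe is 1 of 2 for the transcript FBtr0310320, and was named for being the only call. It read 8.73, 9.71 and 9.32 in c564>+ gut and 13.71, 14.47 and 14.70 in c564>nub-RB gut, with 14.06 as the mean in c564>Pdm2-RB gut. The difference was 5.04 (SE 0.36, adjusted p = 0.00443). The other probe of this transcript read 14.31, 14.84 and 14.57 against 15.63, 16.23 and 16.47, a difference of 1.54 (SE 0.26, adjusted p = 0.0517). The 2 probes thus disagreed in size by 3.50, the largest such gap among the 34 names with several probes, where the median gap was 0.07. The call of the first probe was lost when any of 5 of the 6 gut arrays was left out, all but c564>nub-RB replicate 1, while the difference stayed between 4.78 and 5.33.

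The named genes with the smallest adjusted p in gut were maltases and CG15534, and none was called at 1%. Mal-A8 read 15.53, 15.81 and 16.09 in c564>nub-RB gut, above all 3 control arrays given above, a difference of 2.95 (SE 0.38, adjusted p = 0.0247). Its second probe differed by 2.64 (SE 0.41, adjusted p = 0.0400). Mal-A7, its neighbour in the genome, read 14.99, 14.95 and 13.99 in c564>+ gut and 16.60, 16.63 and 16.62 in c564>nub-RB gut, a difference of 1.97 (SE 0.29, adjusted p = 0.0351). CG15534 read 15.74, 16.07 and 15.78 in c564>+ gut and 14.17, 12.79 and 13.06 in c564>nub-RB gut. Its difference was −2.52 (SE 0.37, adjusted p = 0.0356), and its second probe gave −2.60 (SE 0.55, adjusted p = 0.0840). In all 5 of these probes the genotypes did not overlap. CG15533, the neighbour of CG15534, overlapped between genotypes. The 5 named probes of the carbohydrate digestion list were those of Mal-A7, Mal-A8 and tobi. Their summed linear signal was 54690 to 131000 in c564>+ gut and 327600 to 498200 in c564>nub-RB gut. In c564>Pdm2-RB gut it was 243000 to 615400, so the higher level was not particular to c564>nub-RB. A high signal in c564>Pdm2-RB gut was part of the choice of the members.

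At a false discovery rate of 5%, 12 members would be called higher and 3 lower. Of all 16698 probes tested, 204 would be called higher and 147 lower. The higher ones included both probes of FBtr0075868, at 1.20 and 1.21, FBtr0087664 at 2.29 and FBtr0086807 at 1.41. The lower ones were CG15534, FBtr0273419 at −1.93 and FBtr0085617 at −1.83. They were chosen by that threshold and not by the rule for named genes.

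The main protein-digesting families did not differ by a called amount in gut. The medians were −0.35 over 7 trypsin probes, −0.08 over 10 Jonah probes, −0.57 over 6 carboxypeptidase probes and 0.09 over 7 aminopeptidase and astacin probes. The 3 maltase probes had a median of 2.64. thetaTry, a trypsin, read 16.72, 17.00 and 17.06 in c564>+ gut and 16.48, 15.70 and 15.41 in c564>nub-RB gut, a difference of −1.06 (SE 0.30, adjusted p = 0.151). CG8562 read 16.64, 16.13 and 16.23 in c564>nub-RB gut, below the controls given above, with −0.93 (SE 0.17, adjusted p = 0.0642). Jon25Biii read 18.48, 18.44 and 18.44 in c564>+ gut and 18.48, 18.45 and 18.44 in c564>nub-RB gut, a difference of 0.00260 (SE 0.12). Npc2e read 16.03, 16.65 and 16.53 against 15.87, 13.50 and 13.90, with −1.98 (SE 0.63, adjusted p = 0.185).

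**Figure D5:**
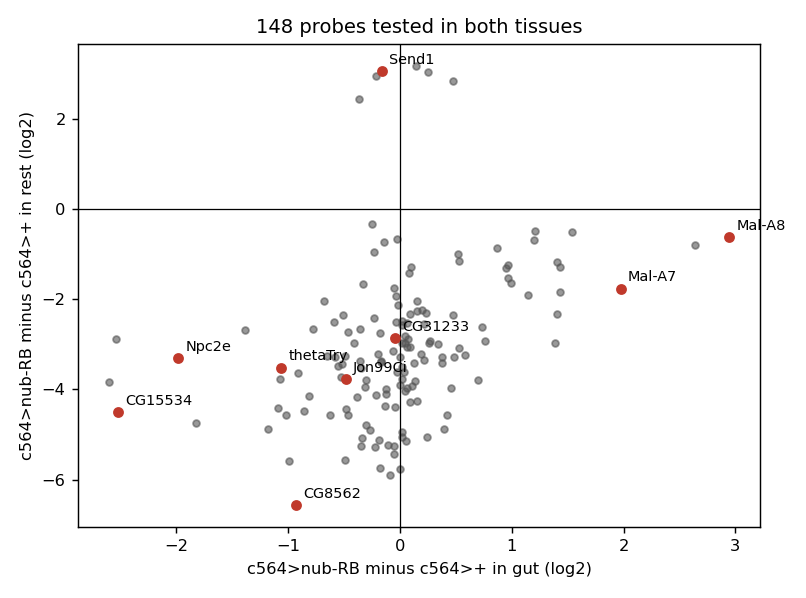
Difference of c564>nub-RB from c564>+ in gut (horizontal axis) and in rest (vertical axis), both as mean log2 differences, for the 148 members tested in both tissues. Most points lie near 0 in gut and between −6 and −1 in rest, with the maltases to the right, CG15534 and Npc2e to the left and the 6 probes with Send1 above 0 in rest.

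An interaction term on the 13 arrays tested whether the difference between c564>nub-RB and c564>+ was the same in gut and in rest. No member was called, against backgrounds of 0.267% higher in gut than in rest and 0.557% lower, of 17952 probes tested. The difference of the effects was above 0 in 193 of 200 members (54.9% of all probes tested), with a median of 2.83 (0.07 for all probes tested). At an unadjusted p under 0.05, 41 were above 0 (20.5%, against 14% of all probes) and none below (against 12.6%). Without c564>+ rest replicate 3, 33 members were called higher, against 72 higher and 37 lower of all 17946 probes tested. With a normexp background correction the median was 1.22 and 6 members were called higher. Of all 17952 probes tested, 93 were then called higher and 215 lower. The smallest adjusted p belonged to FBtr0082771, which read 6.55, 9.98 and 6.34 in c564>+ gut and 12.25, 11.45 and 12.79 in c564>nub-RB gut, and lay between 2.70 and 3.99 on all 7 rest arrays. The difference of its effects was 4.67 (SE 1.09, adjusted p = 0.0293). At a false discovery rate of 5%, 4 other probes joined it, namely FBtr0087664, FBtr0085150, TC250773 and LP08709, with differences of 2.74 to 3.62. These 5 were 2.5% of the members. Of all 17952 probes tested, 626 were called higher and 868 lower at that rate.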

How the data were processed

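RNA of gut and rest from pools of females was labelled with Cy3 and hybridized to 19 one-color Agilent arrays. The authors extracted the spot intensities with Agilent Feature Extraction 10.7.3.1, which subtracts background, imported the processed signals to Partek and quantile-normalized them. Their deposited table holds 1 linear signal per probe, and the deposited scanner files hold an intensity per spot with quality marks. The members were ranked on the log2 of the authors' table.

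For the comparisons, spots marked as uneven or as population outliers were left out (46 to 87 of 43602 spots per array), spots of a probe were averaged, and the signals of all 19 arrays were quantile-normalized together and put on a log2 scale. For 41 values only marked spots were left and were used. On the log2 scale, 99.9% of the values differed by under 0.01 from the authors' table, and the same 200 members resulted. Probes entered a test if 1 or more of the compared groups had a mean linear signal above 130. Each comparison was fitted on its own arrays with limma 3.58.1 in R 4.3.3 (lmFit and eBayes, Benjamini-Hochberg adjustment at 1%), the tissue difference as an interaction. The code was checked on simulated data. Where no array of a group was well above background, the fold is a lower bound against the lowest signal well above background on each array. A probe's own signal was used where it was higher, as for CG8562 on c564>nub-RB rest replicate 1. That floor is a convention and no measured detection limit. The number of arrays limits the precision, and replicates are independent pools according to the Methods. Figures were drawn with matplotlib 3.10.9.

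Symbols came from the study's lists of changed genes and from RefSeq, without coordinates. Named genes were the 8 highest by the choice, the 3 called probes with the smallest adjusted p in each direction of a comparison (or the 3 smallest where none was called), the highest in control gut and the largest drop in rest of each gene list, and the probes beside the threshold. The members and lists were chosen with earlier results of these data known. No list named through these symbols held probes of peritrophic matrix, enteroendocrine, copper cell or ovary genes. Lists of pepsin-like and cathepsin proteases (2 named genes), lipid digestion (2), lysozymes (3), antimicrobial peptides (13), salivary gland (4) and metallothioneins (1) served for comparison.

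The alternatives were the authors' values, scaling to the 75th percentile, normexp with an offset of 50, and other filters and models. T-tests, named in the Methods with no pooling stated, were run with the spread of each probe or a pooled spread. Others were blocks for slide, scan date or replicate number, a 5% false discovery rate, 100 members and leaving out each array. Fits within 1 scan date, and with scan date as a block where only 1 date held both groups, were chosen after seeing the data.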

Additional observations from a re-analysis of the deposited data

Results flagged for a closer look

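For 33 named or singled-out probes, the 4 c564>nub-RB rest arrays were searched for 1 array far from the others. It was found for 1 of them, CG31343, an aminopeptidase, which read 6.04, 6.03, 6.47 and 9.05. The gap of replicate 4 to the nearest array was 0.855 of the whole range, above Dixon's critical value for 4 samples. Chance flags about 1 in 20 groups.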

How the results depend on the processing

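With scaling to the 75th percentile the mean of the members' array medians was 16.03 in c564>Pdm2-RB gut, 15.80 in c564>nub-RB gut and 16 in c564>+ gut, against 15.54, 15.39 and 15.39. With normexp it was 6.94 in c564>Pdm2-RB rest and 7.26 in c564>nub-RB rest, against 3.48 and 4.77. For gut against rest in c564>+, 92% of members were called higher, 56.5% by the Methods' t-test with the spread of each probe and 23.5% within 1 scan date, where the lone gut array was assumed to vary like the rest arrays. Leaving out 1 array gave 65.7% to 99.5%, with medians of 6.54 to 8.58. For c564>nub-RB, leaving out 1 array gave 86.5% to 98.5% and medians of 9.65 to 11.07, against 97.5% and 10.28. The median was 7.75 with normexp, and 12.64 within 1 scan date and with scan date as a block, where the lone rest array was assumed to vary like the gut arrays although the spread of the members was larger in rest.

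For nub-RB against control in rest, 5.41% of tested members were called lower in a model of all 6 groups, against 0%. By the t-test with 1 pooled spread, 88.5% were called lower and 4.05% higher. With the replicate number as a block, 0.676% were called lower. Leaving out 1 array gave 0% to 21.5% lower, 0% higher and medians of −4.24 to −2.45. In gut, against 0.5% higher and 0% lower, the model of all 6 groups and the 100 highest members each gave 1% higher, the pooled t-test 5.5% higher and 4% lower, and a false discovery rate of 5% gave 6% higher and 1.5% lower. The t-test with the spread of each probe, scan date as a block, the fit within 1 scan date and the replicate block gave 0% higher. Leaving out 1 array gave 0% to 0.5% higher, 0% to 2% lower and medians of −0.19 to 0.0619. The median was −0.23 with scaling to the 75th percentile. For the difference between the tissues, against 0%, 3% were called higher with normexp, 71.5% (and 3% lower) by the pooled t-test and 2.5% at a false discovery rate of 5%. Leaving out 1 array gave 0% to 16.5% higher, 0% lower and medians of 2.08 to 3.80. The causes were not tested. The other summary values kept their direction and stayed within 1.5 times, or within 1 SD between arrays, of the value reported.

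Same-numbered samples did not clearly deviate together (correlations from −0.471 to 0.267), and the main tests used no pairing. With so few arrays in a group, these correlations cannot exclude that same-numbered samples are paired. The slide as a random block could not be fitted for gut against rest in either genotype. In rest, 88 to 198 of 200 members were well above background on an array, so differences of dim members have a floor.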
